A study of Mus musculus with 2 samples.

Results

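The snoRNA host genes described here are 8 noncoding mouse genes whose introns hold genes for small nucleolar RNAs (snoRNAs): Gas5, Snhg1, Snhg3, Snhg5, Snhg6, Snhg8, Snhg12 and Snhg15. They were chosen by name among the 43346 genes of the tables, by matching gene identifiers without their version to GENCODE M21 symbols. Values were found for 6 of the 8. Snhg1 and Snhg8 had no row that matched by identifier, and their levels were not analysed here.

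A snoRNA host gene is transcribed and spliced, and the snoRNA is cut from the excised intron. C/D box snoRNAs guide methylation of ribosomal RNA and H/ACA box snoRNAs guide the conversion of uridine to pseudouridine in it, each in a particle with its own core proteins. The spliced exons of the noncoding hosts hold no long reading frame, and several of these RNAs are known to start with a run of pyrimidines (a 5′ terminal oligopyrimidine or TOP start, shared with ribosomal protein mRNAs) and to be degraded by nonsense-mediated decay when they are translated.

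The RNA came from cells labelled as primary megakaryocyte-erythroid progenitors (MEP), the precursors of red cells and platelet-forming megakaryocytes. The mice were adult C57BL/6J females aged 5 weeks. Poly(A) RNA was sequenced as paired ends in 1 group of 2 biological replicates, with no treatment or mutation, so there is no comparison between conditions and no test. The replicates are separate biosamples under the same donor identifier, and whether they came from separate animals is not stated, so the spread between them may be technical. Expected counts (estimated fragments per gene) summed to 79539457 in replicate 1 and 65305321 in replicate 2, and with 0 counts a gene could still reach 0.0377 CPM in replicate 1 and 0.0459 CPM in replicate 2 (CPM, counts divided by the library sum and multiplied by 1000000), counting error only.

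A label calls the cells CD34 negative and names lineages and CD16/32 in the same phrase. All 8 erythroid markers and all 6 megakaryocyte markers were above 1 TPM (transcript abundance corrected for length and scaled to a fixed library sum) in both libraries, with summed levels of 1216 and 216 TPM in replicate 1 and of 2119 and 352 TPM in replicate 2. The 7 granulocyte and monocyte markers summed to 31078 TPM in replicate 1 and 17018 TPM in replicate 2, and Cd34 itself stood at 69.1 and 91.9 TPM. The granulocyte and monocyte sum was above the erythroid and megakaryocyte sums in both libraries, and how pure the cells were was not tested. The 5 B cell markers summed to 73.6 and 27.0 TPM, the 5 stem cell markers to 119 and 189 TPM with Slamf1 and Mecom under 1 TPM, and all 4 T cell markers were under 1 TPM. In such bulk samples fewer cells of a type and less RNA per cell cannot be told apart.

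The starts of the host genes are shown first because a TOP start is what these RNAs are known to share with ribosomal protein mRNAs. Each sequence below, from the RefSeq promoter table (GRCm38.p6), runs from 40 bases before the annotated start to 30 bases from the start on, so the 41st letter is the first transcribed base. Capitals mark the longest run of C or T between 10 bases before the start and 20 bases from it.
Gas5, upstream start, chr1:161034561-161034630 (+): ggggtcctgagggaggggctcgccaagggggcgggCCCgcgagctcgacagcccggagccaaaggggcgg
Gas5, downstream start, chr1:161035126-161035195 (+): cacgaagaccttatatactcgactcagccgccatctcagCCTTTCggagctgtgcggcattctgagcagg
Snhg1, chr19:8723447-8723516 (+): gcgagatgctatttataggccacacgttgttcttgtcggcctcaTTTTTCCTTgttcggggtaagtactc
Snhg12, chr4:132308638-132308707 (+): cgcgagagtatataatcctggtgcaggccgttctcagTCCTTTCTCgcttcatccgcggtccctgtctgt
Snhg15, chr11:6528731-6528800 (-): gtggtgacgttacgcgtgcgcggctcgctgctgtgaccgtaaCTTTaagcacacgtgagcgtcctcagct
Snhg3, chr4:132353657-132353726 (-): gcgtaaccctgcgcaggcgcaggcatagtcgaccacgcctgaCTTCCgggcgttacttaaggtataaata
Snhg5, chr9:88522868-88522937 (-): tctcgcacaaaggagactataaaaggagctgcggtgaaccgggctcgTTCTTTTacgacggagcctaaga
Snhg8, chr3:123508307-123508376 (-): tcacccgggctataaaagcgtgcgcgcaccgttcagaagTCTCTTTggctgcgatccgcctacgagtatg

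The start of Snhg6 is shown instead by the first bases of its leading transcript in GENCODE M21 (GRCm38), again with the longest C or T run in the first 20 bases in capitals.
Snhg6, first bases of Snhg6-204, chr1:9944078-9944117 (-): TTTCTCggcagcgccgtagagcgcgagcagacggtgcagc

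A run of 6 or more C or T in that window was found at 5 of the 8 RefSeq starts of the members. These were in 5 of the 7 members with a RefSeq start, at Gas5 (downstream start), Snhg1, Snhg5, Snhg8 and Snhg12. Of all 32851 RefSeq starts, 28.7% held such a run on the sense strand. Snhg1 and Snhg12 held the longest runs, of 9 bases each, and a run of 8 or more was present in 11.2% of all starts. At the downstream Gas5 start and at Snhg8 the run began 1 base before the annotated first base, which was a C in both. Snhg12 began with T inside its run. At Snhg1 the first base was a C outside the run, which began 4 bases after it. Snhg5 began with G and had its run of 7 bases from the 8th base on. Snhg15, with 4, and Snhg3, with 5, had shorter runs. Among leading transcripts, Snhg6-204 began directly with its run of 6, Snhg5-201 began directly with its run of 7, and the run of Gas5-224 began at its 3rd base.

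The letters TATAAA or TATATA within the 50 bases before the start were looked for after the sequences had been read, first on the sense strand. They were present at 4 of the 8 member starts, those of Gas5 (downstream start), Snhg5, Snhg8 and Snhg12, at 23 to 32 bases before the start. Of all RefSeq starts, 3.67% held them, and TATATA reads the same on both strands. TTTATA, the reverse complement of TATAAA, was present at Snhg1, which makes 5 of the 8 member starts on either strand, against 4.47% of all starts. Snhg3 and Snhg15 held none of these letters in this window, which says nothing about the factors that act there.

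The 8 host genes hold 30 annotated snoRNA genes on their own strand, at 28 places since Snord80 and Snora16a are each annotated a second time. Gas5 holds 10 of the entries, Snhg1 8, Snhg12 5, Snhg3 and Snhg5 2 each, and Snhg6, Snhg8 and Snhg15 1 each. All 30 lie inside an intron of at least 1 annotated transcript of their host. The set shown here gives examples from each measured host, with the Snora73 and Snord50 pairs and Snora44 that the results turn on, and the single snoRNA of Snhg8, from GENCODE M21 transcripts (GRCm38). Capitals mark the C box letters TGATGA and the D box letters CTGA in C/D snoRNAs, and the last ACA within 8 bases of the 3′ end in H/ACA snoRNAs.
Snord47 in Gas5, chr1:161038082-161038158 (+): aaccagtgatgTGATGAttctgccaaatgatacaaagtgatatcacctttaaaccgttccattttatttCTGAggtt
Snord80 in Gas5, chr1:161037601-161037681 (+): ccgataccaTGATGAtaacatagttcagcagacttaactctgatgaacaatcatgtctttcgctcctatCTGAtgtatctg
Snord87 in Snhg6, chr1:9942463-9942549 (-): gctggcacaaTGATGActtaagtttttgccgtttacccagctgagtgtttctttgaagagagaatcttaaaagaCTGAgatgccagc
Snord99 in Snhg12, chr4:132310691-132310764 (+): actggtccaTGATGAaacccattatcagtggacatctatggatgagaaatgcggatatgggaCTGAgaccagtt
Snord50a in Snhg5, chr9:88521529-88521600 (-): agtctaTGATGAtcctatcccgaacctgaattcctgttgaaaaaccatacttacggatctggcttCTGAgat
Snord50b in Snhg5, chr9:88521797-88521868 (-): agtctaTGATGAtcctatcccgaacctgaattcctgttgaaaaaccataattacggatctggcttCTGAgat
Snora24 in Snhg8, chr3:123507937-123508066 (-): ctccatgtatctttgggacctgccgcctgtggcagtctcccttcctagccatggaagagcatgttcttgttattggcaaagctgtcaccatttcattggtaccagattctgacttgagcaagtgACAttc
Snora9 in Snhg15, chr11:6528033-6528165 (-): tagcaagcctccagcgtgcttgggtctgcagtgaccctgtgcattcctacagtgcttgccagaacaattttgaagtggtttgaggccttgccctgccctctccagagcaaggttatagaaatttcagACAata
Snora44 in Snhg12, chr4:132309941-132310069 (+): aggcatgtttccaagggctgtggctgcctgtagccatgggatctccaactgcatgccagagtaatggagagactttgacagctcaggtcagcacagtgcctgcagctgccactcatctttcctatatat
Snora73a in Snhg3, chr4:132352775-132352979 (-): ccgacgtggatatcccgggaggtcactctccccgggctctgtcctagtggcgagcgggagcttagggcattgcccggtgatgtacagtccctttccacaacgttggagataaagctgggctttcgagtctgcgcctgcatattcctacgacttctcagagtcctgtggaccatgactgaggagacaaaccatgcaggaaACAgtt
Snora73b in Snhg3, chr4:132352322-132352526 (-): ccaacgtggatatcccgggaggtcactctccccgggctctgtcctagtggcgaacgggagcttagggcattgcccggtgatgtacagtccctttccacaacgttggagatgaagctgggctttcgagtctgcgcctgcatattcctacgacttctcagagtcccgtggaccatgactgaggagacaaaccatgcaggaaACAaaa

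TGATGA within the first 20 bases together with CTGA within the last 20 was found at 16 of the 28 places, and over all 1507 annotated snoRNA genes the share was 20.5% (sense strand). Of the 8 places with a Snord symbol, 6 had both, against 69.4% of the 98 Snord genes of the annotation. Snord78 in Gas5 and Snord22 in Snhg1 were the Snord genes without TGATGA there. ACA within the last 8 bases was found in 6 of the 7 places with a Snora symbol, against 95.2% of the 42 Snora genes of the annotation. Snora44 in Snhg12 is the exception, and its annotated sequence, printed above, has no capitals for that reason. The Gas5 snoRNA with the symbol Mir5117 held both the C and D box letters and also ACA near its end.

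Most of these snoRNAs lie close to the exon that follows. The distance was the smallest over the introns of all annotated transcripts of the host. The median distance from the end of the snoRNA to the next exon was 75.5 bases over the 30 entries, and 23 of them lay 40 to 100 bases away. In other annotated transcripts of the host, 28 of the 30 overlap an exon. Inside an intron of the leading transcript lay 16, with a median of 77 bases. Snhg1 and Snhg8 had no leading transcript, and that of Snhg5 by mean share had no M21 entry. Snora44, Snora61 and Snord99 in Snhg12 lay outside the introns of the M21 model of Snhg12-204, whose length differs from the deposited one. The lowest distance was 51 bases, in Snhg1, and the highest was 1595 bases, for Snora9 in Snhg15. Snora73a and Snora73b in Snhg3 lay 76 and 78 bases away, and Snord50a and Snord50b in Snhg5 both lay 80 bases away. Both C/D and H/ACA snoRNAs lay in that range. Outside it, besides Snora9, were both Snord80 entries and Gm26224 in Gas5, both Snora16a entries in Snhg12 and Gm23246 in Snhg1, at 121 to 314 bases.

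Among protein-coding hosts in which the snoRNA lies outside every exon, the median distance to the nearest next exon was 1719 bases over 247 snoRNA places outside the 8 hosts, each counted once, and 11.3% of them lay 40 to 100 bases away. Much of that list consists of predicted snoRNA genes with Gm symbols. With the hosts' own rule (an intron of any transcript) and Snord or Snora symbols alone, a choice made after the values were seen, 42 of 83 such places in coding hosts (50.6%) lay in that range with a median of 94 bases. Of the Snord and Snora places in the 8 noncoding hosts, also counted once, 12 of 15 (80.0%) lay there with a median of 78 bases. Snora73a and Snora73b, which lie inside introns of both Snhg3 and Rcc1, are counted with Snhg3 alone.

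**Figure D1:**
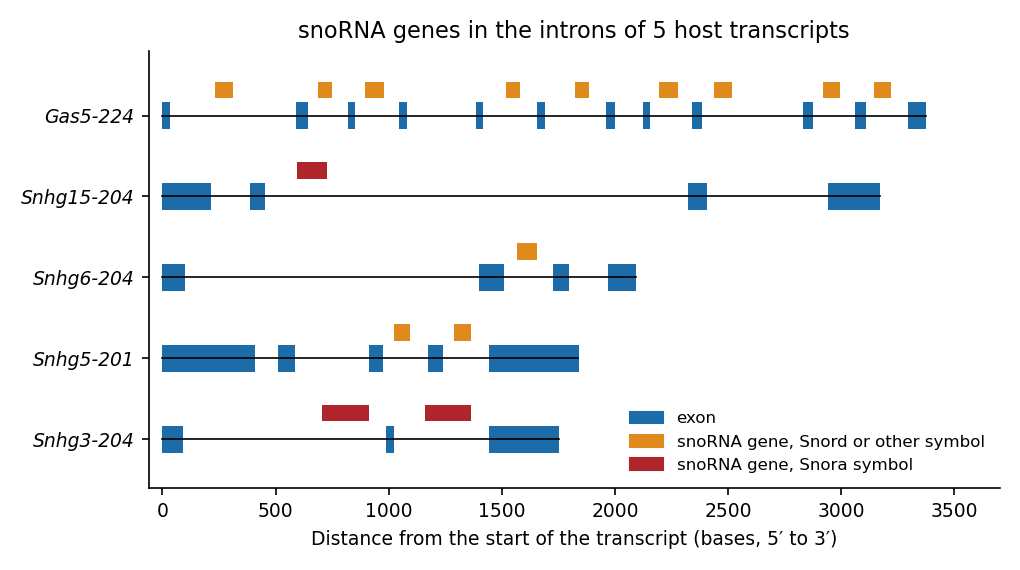
Exons (blue) and snoRNA genes (orange for Snord and other symbols, red for Snora symbols) of 5 host transcripts, drawn to scale against the distance in bases from the start of each transcript. Most snoRNAs sit 40 to 100 bases before the next exon, while Snora9 in Snhg15-204 lies 1595 bases from it and Gm26224 and Snord80 in Gas5-224 lie 278 and 313 bases from it.

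All 6 hosts with values were detected, at 1 TPM or more in both libraries. Snhg12, host of 4 different snoRNAs (chr4:132308623-132311024, plus strand, annotated as lincRNA), was the most abundant, at 217 TPM in replicate 1 and 184 TPM in replicate 2, or 201 ± 23.2 TPM (SD, n = 2). Its deposited TPM intervals, which cover the quantification error within 1 library, ran from 207 to 222 TPM in replicate 1 and from 174 to 189 TPM in replicate 2. The replicate 1 interval therefore lay wholly above that of replicate 2. Snhg12 alone made up 49.3% of the summed TPM of the 6 hosts in replicate 1 and 41.4% in replicate 2.

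Gas5, growth arrest specific 5, is known to accumulate in cells that stop growing and, in human cells, to bind the glucocorticoid receptor. The gene (chr1:161034422-161038539, plus strand) stood at 75.3 TPM in replicate 1 and 89.8 TPM in replicate 2, or 82.6 ± 10.2 TPM (SD, n = 2). Snhg15 (chr11:6525591-6528760, minus strand) stood at 73.3 and 81.8 TPM, or 77.6 ± 6.02 TPM (SD, n = 2). Snhg6 (chr1:9941959-9944118, minus strand), host of Snord87, stood at 64.0 and 76.1 TPM, or 70.0 ± 8.53 TPM (SD, n = 2). These 3 genes form a middle level, each lower in replicate 1 than in replicate 2.

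Snhg5 (chr9:88521050-88522929, minus strand), whose human counterpart was found at a translocation breakpoint in B cell lymphoma, stood at 6.83 TPM in replicate 1 and 6.45 TPM in replicate 2, or 6.64 ± 0.27 TPM (SD, n = 2). Snhg3 (chr4:132348014-132353686, minus strand), host of the Snora73 pair, stood at 3.89 TPM in replicate 1 and 6.51 TPM in replicate 2, or 5.20 ± 1.85 TPM (SD, n = 2). Both sat at least 9.37-fold below Snhg6 in TPM, the lowest gene of the middle level. Snhg3 rests on 75 and 99 expected counts, while Snhg12 had 3360 and 2226.

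**Figure D2:**
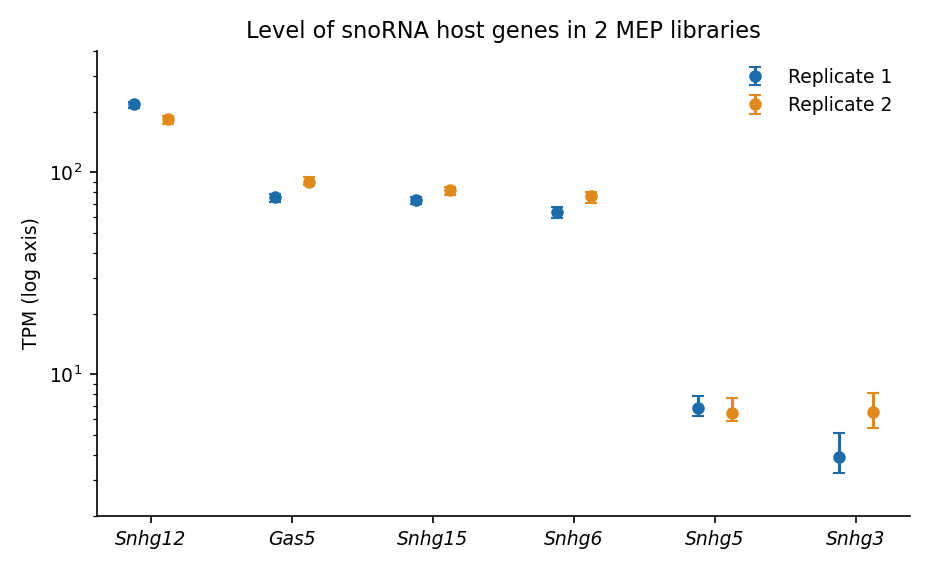
TPM (log axis) of the 6 host genes with values, with replicate 1 in blue and replicate 2 in orange, and bars for the deposited interval of each library. Snhg12 stands highest at 217 and 184 TPM, Gas5, Snhg15 and Snhg6 lie between 64.0 and 89.8 TPM, and Snhg5 and Snhg3 lie between 3.89 and 6.83 TPM.

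The order of levels was called for a pair of genes when both libraries gave the same order and neither showed an overlap of the 2 TPM intervals. This held for 12 of the 15 pairs. Snhg12 was above each of the other 5 genes, by 2.88-fold in replicate 1 and 2.05-fold in replicate 2 over Gas5, and by 55.8-fold and 28.3-fold over Snhg3. Gas5 was 1.18-fold above Snhg6 in both libraries. Gas5 and Snhg15 were not separate in replicate 1, with a ratio of 1.03, and Snhg15 and Snhg6 were not separate in replicate 2, with a ratio of 1.08. Snhg5 was 1.76-fold above Snhg3 in replicate 1 and 0.99 times Snhg3 in replicate 2, so the order of the lowest pair was not settled.

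The lead of Snhg12 over Gas5 depends on the correction for length. The expected counts were 3360 for Snhg12 and 2598 for Gas5 in replicate 1, and 2226 for Snhg12 and 2453 for Gas5 in replicate 2. The deposited mean transcript length was 374 bases for Snhg12 in replicate 1 and 661 bases for Gas5. The GENCODE M21 model of the leading Snhg12 transcript is longer, at 1416 bases against 364 bases in the tables, and the TPM of Snhg12 rests on the shorter model of the tables.

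Among the 263 noncoding genes detected in both libraries, ranked by mean TPM, Snhg12 was 8th, Gas5 15th, Snhg15 16th, Snhg6 19th, Snhg5 95th and Snhg3 123rd. The median of the 6 genes was 73.8 TPM, against 4.54 TPM over the detected noncoding genes and 15.4 TPM over all 10698 detected genes. Summed over the 6 genes the level was 441 TPM in replicate 1 and 445 TPM in replicate 2. The sum thus differed little while its parts moved in both directions.

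Between the libraries, differences were taken as log2 CPM after TMM scaling, replicate 1 minus replicate 2, and a gene was called when it was over 2-fold apart with separate TPM intervals. None of the 6 hosts was called, against 4.95% of the 13546 genes that passed the filter on low counts (2.42% higher in replicate 1 and 2.53% higher in replicate 2). All 6 hosts were detected in both libraries, and of the 10695 detected genes that passed, 218 were called. With 1 library against 1 there is no p-value for the count of hosts. Snhg12 at 0.37 and Snhg5 at 0.15 were higher in replicate 1, and Snhg3 at -0.61, Gas5 at -0.14, Snhg6 at -0.12 and Snhg15 at -0.06 were higher in replicate 2. The median absolute difference was 0.15 over the 6 hosts and 0.25 over all genes that passed, which include genes not detected in both libraries. The TPM intervals of the libraries were separate for 5 of the 6 hosts, all but Snhg5, against 52.9% of all genes that passed.

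The difference of Snhg3 was larger in size than that of 82.0% of the genes that passed. Marker levels also differed between the libraries. B cell markers (5 of 5, median log2 difference 1.52) and granulocyte and monocyte markers (7 of 7, median 0.83) were higher in replicate 1. Stem cell markers (5 of 5, median -0.58) and megakaryocyte markers (6 of 6, median -0.46) were higher in replicate 2. Erythroid markers (7 of 8, median -0.22) were higher there too. With 2 libraries, any gene that differs shares a direction with some of these sets, so a shared direction carries no information. The part of the marker sets in the host gene differences was not tested.

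**Figure D3:**
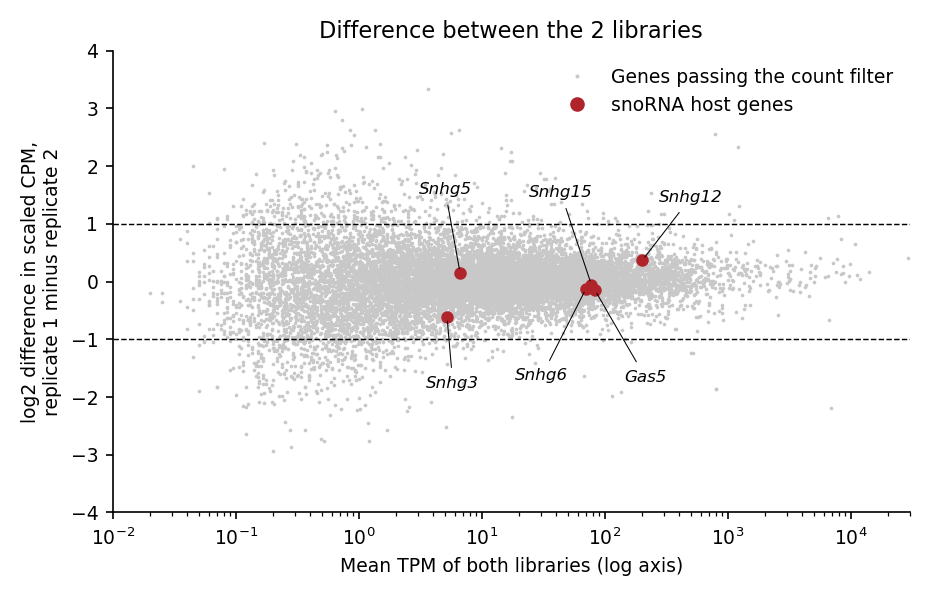
Difference in log2 scaled CPM, replicate 1 minus replicate 2, against mean TPM (log axis) for the genes that passed the count filter (grey) and the 6 host genes (red), with dashed lines at 2-fold. All 6 host genes lie inside the lines, between -0.61 for Snhg3 and 0.37 for Snhg12.

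The host genes differed in how many transcripts shared their TPM. Snhg12, Snhg15 and Snhg3 each had a single leading transcript: Snhg12-204 took 96.2% in replicate 1 and 96.8% in replicate 2, Snhg15-204 took 95.2% and 90.3%, and Snhg3-204 took 94.2% and 84.4%. The remainder of Snhg15 included Snhg15-203, at 2.73% and 7.69%. Snhg3-205 held 5.83% and 4.25%, and Snhg3-203 held 0% and 7.19%. Snhg6 was split between Snhg6-204, at 77.3% and 85.0%, and Snhg6-203, at 19.5% and 8.73%. In each of these 4 genes the same transcript led in both libraries.

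Gas5 had 25 transcripts in the tables, and 16 of them had counts in both libraries. Gas5-224, a spliced transcript of 12 exons and 502 bases, led with 46.9% in replicate 1 and 43.0% in replicate 2, followed by Gas5-210 with 13.8% and 18.0%. Gas5-217 held 5.11% and 9.45%, Gas5-222 held 7.44% and 7.75%, and Gas5-207 held 5.08% and 2.83%. Gas5-201 held 7.38% in replicate 1 and 0.09% in replicate 2, from 144 and 1.69 expected counts. The leading shares were thus close in both libraries, while a minor transcript was not.

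Snhg5 was the only one of the 6 genes whose leading transcript differed between the libraries. In replicate 1 it was ENSMUST00000183030, which has no GENCODE M21 entry by identifier, with 61.9% against 32.7% in replicate 2. In replicate 2 it was Snhg5-201, with 48.9% against 0% in replicate 1. With the deposited posterior mean shares ENSMUST00000183030 led in both libraries, with 35.1% and 43.3%, so the switch depends on the estimate used. The other Snhg5 transcripts at 5% or more were ENSMUST00000182900, with 9.89% and 11.9%, Snhg5-206, with 16.0% and 4.81%, Snhg5-202, with 6.75% and 1.70%, and Snhg5-204, with 5.47% and 0%.

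**Figure D4:**
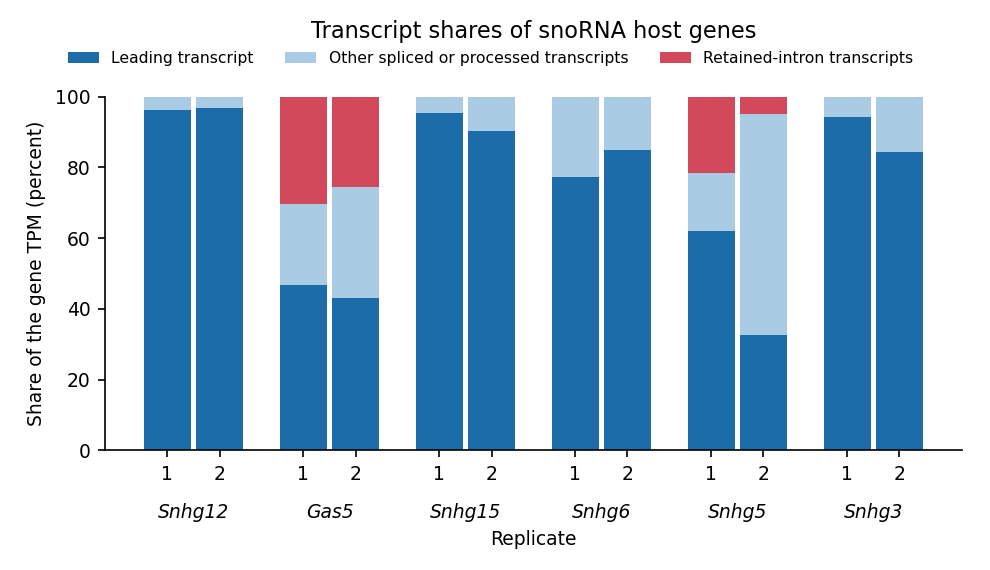
Share of each host gene's TPM (percent, bars stacked to 100) held by its transcript with the highest mean share (dark blue), by other spliced or processed transcripts (light blue) and by transcripts annotated as retained intron (red), for replicates 1 and 2. Gas5 and Snhg5 are the only genes with transcripts annotated as retained intron, which held 30.5% and 25.7% of Gas5. For Snhg5 the dark blue share is 61.9% in replicate 1 and 32.7% in replicate 2. Snhg15-203, which holds a whole snoRNA, is in the light blue share.

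Transcripts annotated as retained intron are those in which an intron, and with it often the snoRNA, stays in the RNA. Gas5 has 20 such transcripts, and together they held 30.5% of its TPM in replicate 1 and 25.7% in replicate 2, which is 22.9 and 23.1 TPM. In Snhg5 they held 21.5% and 4.81%. No transcript of Snhg12, Snhg15, Snhg3 or Snhg6 is annotated in this way, so their share was 0% by annotation alone. Over all 6 hosts they made up 5.54% of the TPM in replicate 1 and 5.25% in replicate 2. By expected counts, which weight long transcripts more, the Gas5 share was 49.8% and 46.7%.

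A whole snoRNA sequence was found in 16 of the 25 Gas5 transcripts, whose M21 length equals the deposited one. These held 22.2% of Gas5 TPM in replicate 1 and 20.6% in replicate 2. The most abundant, Gas5-222, is 1614 bases long and holds 3 snoRNAs, with Snord78 among them, at 5.60 and 6.96 TPM. Gas5-207 holds the snoRNA with the symbol Mir5117, at 3.83 and 2.54 TPM. Snhg15-203 holds Snora9 whole, at 2.00 TPM in replicate 1 and 6.29 TPM in replicate 2. No transcript of Snhg3 or Snhg6 held a whole snoRNA. Only transcripts with the same length in both annotations were searched. Of Snhg12 these were 3 of 7, with 3.38% of its TPM in replicate 1 and 2.70% in replicate 2. Of Snhg5 they were 5 of 8, with 12.2% and 50.6%. Those with a whole snoRNA stood at 0.38 TPM or less each. The leading Snhg12-204, at 209 and 179 TPM, was not searched, so the level of Snhg12 RNA with a whole snoRNA is not known.

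The snoRNAs themselves were almost out of reach of these libraries. Rows were matched for 28 of the 30 entries, and 20 of the 28 had an effective length (the positions at which a fragment of the library can start) of 0, so that no count could fall on them. A further 6 had an effective length above 0 and under 10 bases, and they had no counts. The other 2 were Snora73a and Snora73b, each 205 bases long, members of the snoRNA family also called U17, which is known for a role in the cleavage of ribosomal RNA precursors. Snora73a had 14 expected counts in replicate 1 and 12 in replicate 2, or 3.25 and 3.73 TPM. Snora73b had 10 in replicate 1 and 0 in replicate 2. The pair is identical at 198 of 205 aligned positions (96.6%), so the split of reads between them is uncertain. Both also lie inside introns of Snhg3 and Rcc1. Whether their counts came from the snoRNAs or from unspliced host RNA was not tested.

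Snord50a and Snord50b in Snhg5 are identical at 71 of 72 positions, and each has the same sequence as 1 other annotated snoRNA gene. A read of their sequence could not be assigned to 1 gene. Their effective length was 0.

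The spliced host RNAs are short and hold short reading frames. Where the M21 length equals the deposited one, the leading transcripts measured 592 bases for Snhg15-204, 502 bases for Gas5-224, 437 bases for Snhg3-204 and 400 bases for Snhg6-204, and Snhg5-201, which led in replicate 2, measured 1004 bases. Their longest reading frame from an ATG to a stop had 39 codons in Gas5-224, 43 in Snhg3-204, 53 in Snhg6-204, 59 in Snhg15-204 and 66 in Snhg5-201. A stop codon more than 50 bases before the last exon junction is the textbook signal for nonsense-mediated decay. The frame of the first ATG had 23 codons in Gas5-224, 35 in Snhg15-204, 53 in Snhg6-204, 3 in Snhg5-201 and 42 in Snhg3-204. This first frame ended 315 bases before the last junction in Gas5-224, 220 in Snhg15-204, 73 in Snhg6-204 and 536 in Snhg5-201. In Snhg3-204 that frame ended 32 bases after the last junction (-32 before it). Whether these frames are translated was not measured.

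Neighbouring genes bear on how the counts of some hosts can be read. Rcc1, which encodes the exchange factor of the GTPase Ran, overlaps Snhg3 by 5592 bases on the same strand with starts 81 bases apart, and it stood at 58.2 and 58.3 TPM with 7736 and 6060 expected counts. The 75 and 99 counts of Snhg3 are therefore uncertain, since reads in shared sequence could be divided either way. Gm17300, antisense inside Snhg3, had 3 counts in replicate 1 and 0 in replicate 2. Zbtb37 overlaps the start of Gas5 by 428 bases on the opposite strand, at 0.12 and 0.36 TPM, and Mcmdc2 overlaps the end of Snhg6 by 127 bases, also on the opposite strand, at 0.40 and 0.01 TPM. How the counting handled strand was not given in the sources used here, and antisense reads may have been counted. Slc3a2, a subunit of amino acid transporters, starts 106 bases from Snhg1 in the opposite direction and stood at 66.0 TPM in replicate 1 and 89.6 TPM in replicate 2.

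Other noncoding snoRNA hosts also ranged widely. Of the 10 further symbols, 8 had values and 5 were detected in both libraries, with a median of 19.1 TPM over the 8. Epb41l4aos was highest at 134 TPM in replicate 1 and 155 TPM in replicate 2, next below Snhg12. Snhg20 followed at 32.8 and 54.6 TPM. Snhg11 stood at 0.17 and 0.11 TPM, and Snhg14 and Snhg18, at 0 in replicate 1 and 0.01 TPM in replicate 2 each, were the lowest. None of the 6 that passed the filter was over 2-fold apart, against 4.95% of all genes that passed.

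Protein-coding snoRNA hosts, by the rule that the snoRNA lies outside every exon, numbered 220, of which 218 had values, 147 were detected and the median was 8.07 TPM. Snhg11, typed as protein-coding in GENCODE M21, is on both this list and that of the other noncoding hosts. With an intron of any transcript and Snord or Snora symbols alone, chosen after the values were seen, 61 of 64 genes with values were detected and the median was 247 TPM. The narrower list holds many ribosomal protein genes, and also Rcc1 through the Snora73 pair. The highest of the 220 were Rpl27a at 9190 and 7979 TPM and Rpl7a at 6010 and 6162 TPM, and cytosolic ribosomal proteins as a whole had a median of 734 TPM over 78 genes. At 73.8 TPM, the median of the 6 noncoding hosts was thus under that of the narrower list and above the 8.07 TPM of the 220. The 8 other noncoding hosts with values had a lower median, of 19.1 TPM. Of the 220, 168 passed the filter on low counts. Slc25a43 and Pawr were those over 2-fold apart, with log2 differences of 1.40 and -1.50, against 4.95% of all genes that passed. Both were low, with 93 and 29 expected counts for Slc25a43 and 32 and 81 for Pawr.

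By the distance in log2(TPM + 1) over the 2 libraries, the coding host nearest to Gas5, Snhg15 and Snhg6 was Odc1, the rate-limiting enzyme of polyamine synthesis, at 69.4 and 75.6 TPM. Uchl5 was nearest to Snhg12 at 184 and 204 TPM, Lrrc28 was nearest to Snhg5 at 6.32 and 5.92 TPM, and Gtf2a1 was nearest to Snhg3 at 4.54 and 6.11 TPM. Each of these coding genes is on the list only through a predicted snoRNA gene with a Gm symbol. That snoRNA gene lies 796 bases (Gtf2a1) to 10502 bases (Lrrc28) from the next exon. The likeness in level rests on 2 libraries of 1 group.

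RNAs for the proteins that bind and finish snoRNAs were detected throughout. All 21 genes of the list passed 1 TPM in both libraries, with a median of 46.7 TPM. None of them was over 2-fold apart, against 4.95% of all genes that passed the filter on low counts. In the C/D core, Fbl, the methyltransferase fibrillarin, was highest at 465 TPM in replicate 1 and 632 TPM in replicate 2, and Snu13 followed at 256 and 247 TPM. Nop58, itself a host of 2 Snord or Snora genes, stood at 109 and 161 TPM. In the H/ACA core, Nhp2 stood at 173 and 168 TPM, and Dkc1, the pseudouridine synthase dyskerin, was lowest of the core at 15.2 and 14.5 TPM. Dbr1, the enzyme that opens intron lariats and so gives access to the snoRNA, stood at 47.7 and 45.7 TPM. Znhit3, an assembly factor, at 2.45 and 2.31 TPM, and Tgs1, a cap methyltransferase, at 2.06 and 2.02 TPM, were the lowest.

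Of 15 genes of nonsense-mediated decay and the exon junction complex, 14 were detected, with a median of 38.8 TPM. None of the 15 was over 2-fold apart, against 4.95% of all genes that passed the filter on low counts. Eif4a3, the helicase of the junction complex, was highest at 216 TPM in replicate 1 and 269 TPM in replicate 2, and Upf1, the central helicase of the decay pathway, stood at 118 and 120 TPM. Smg8, at 4.33 and 5.49 TPM, and Magohb, at 1.39 and 0.91 TPM, were the lowest. All 7 regulators of TOP mRNAs were detected, with a median of 42.8 TPM. Cnbp at 112 and 137 TPM and Larp1, which binds the TOP start, at 110 and 122 TPM were the highest, and Mtor at 11.0 and 13.3 TPM and Larp4 at 3.25 and 4.19 TPM were the lowest.

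**Figure D5:**
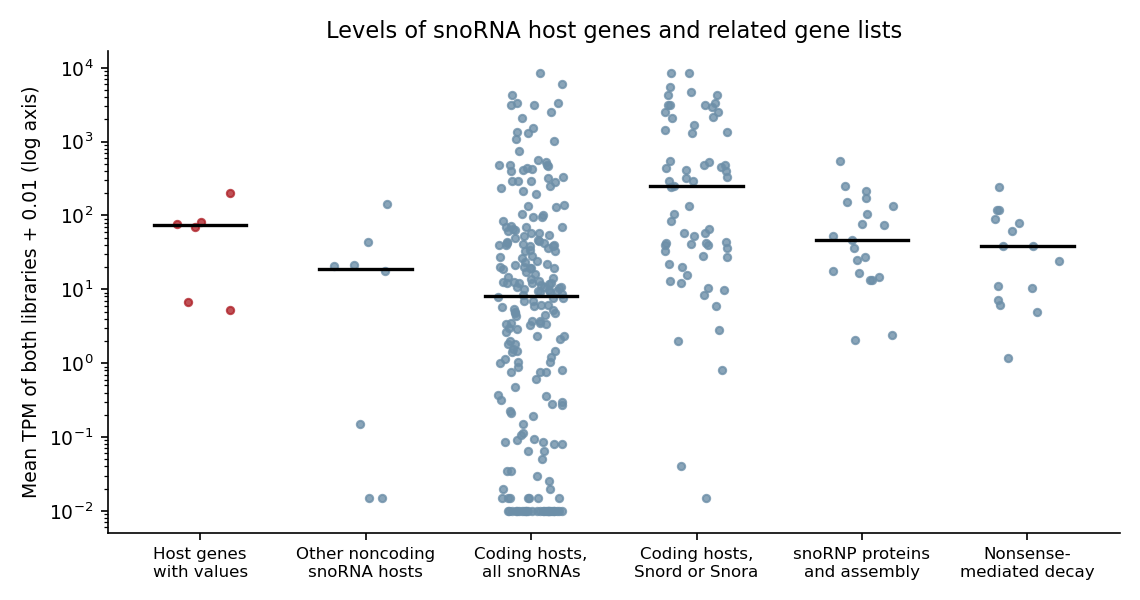
Mean TPM of both libraries plus 0.01 (log axis) of each gene with a value in 6 lists, with a black bar at the median. The 6 host genes (red) have a median of 73.8 TPM, above the coding hosts of all snoRNA genes at 8.07 TPM, below those of Snord or Snora genes, a list chosen after the values were seen, at 247 TPM, and above the other noncoding hosts at 19.1 TPM, the snoRNP proteins at 46.7 TPM and the decay genes at 38.8 TPM.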

How the data were processed

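The authors deposited gene and transcript tables for both libraries. Per the file headers they hold an expected count, TPM, FPKM, percent shares of each transcript, posterior mean values and intervals whose level is not stated. GENCODE M4 and mm10 are named in deposited text. An aligner, a counting program and a strand setting were not given in the sources used here, though RSEM writes columns of these names. The 97 spike-in rows and 26248 numeric rows, with 0 and at most 1 count, stayed out. Of 43346 genes, 42462 matched GENCODE M21 and 884 did not. Differences used edgeR 4.0.16 (R 4.3.3) on rounded expected counts, TMM factors of 0.98 and 1.02, filterByExpr and a prior count of 2, tested on simulated data; DESeq2 1.42.0 gave alternative size factors. Sequences were read with Python 3.11.15, pandas 2.3.3, numpy 2.4.6 and Biopython 1.88.

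The members and lists were chosen with earlier results of these data known. Genes named were the 8 hosts, their snoRNAs and transcripts at 5% or more, neighbours within 1000 bases or overlapping, the nearest coding host, and of each list the 2 highest, the 2 lowest and those over 2-fold apart; further genes were chosen after their values were seen.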

Additional observations from a re-analysis of the deposited data

How the results depend on the processing

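The direction of each host gene's difference between the libraries was kept in all 30 values recomputed with other scalings, prior counts and filters, and the count of genes over 2-fold apart stayed at 0. The detected genes numbered 5 at 5 TPM, since Snhg3 fell under it in replicate 1, and ordered pairs numbered 12 to 14. The median level was 60.5 in FPKM. The retained-intron share, 5.39% as the mean of both libraries, was 5.69% from posterior means and 14.1% by expected counts, which are not divided by transcript length. Without 1 replicate, between 1 and 2 snoRNA genes had counts. Members with a C or T run numbered 2 at 8 bases or more, and 3 of 5 from the first 20 bases of leading transcripts. The median of the TOP regulators ranged from 41.9 to 50.7 TPM without 1 replicate. The median of protein-coding hosts was 10.7 TPM with an intron of any transcript and 247 TPM with Snord and Snora symbols alone, both added after seeing the data. No paired analysis was possible because there is 1 group. Depth limits Snhg3, with under 100 counts in each library, and fragment length limits the snoRNAs.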
